A study of Mus musculus with 8 samples.

Results

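The genes described here make cholesterol, take it up, move it within the cell and send it out again. The set holds 35 genes, chosen by name. Of these, 31 had a probe with exactly 1 gene symbol on the array, out of 22180 genes measured in that way, and all 31 were bright enough to be tested among 16635 genes. Expression of Acat2, Idi1, Nr1h2 and Soat1 was not analysed here, as no probe listed for them alone was at hand.

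Total RNA of 8 primary mammary tumours from transgenic FVB mice was read on Affymetrix whole-transcript arrays, with 1 array per tumour. All 8 tumours carried NeuNT, a form of the rodent ErbB2 receptor. In 4 tumours NeuNT was the only genotype named, and the other 4, labelled NeuNT/H1074R, also carried a mutation in p110α, the catalytic subunit of phosphoinositide 3-kinase. The series title writes that mutation as H1047R. No animal was treated, and the sources used here give no ages, transgene promoters or transgenic lines. The comparison asks how tumours with mutant p110α differ in expression from those with wild-type p110α. Nothing in the labels says that the tumours came from separate mice, so the p-values reflect how far these 8 samples spread.

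Cells build cholesterol from acetyl-CoA, first along the mevalonate arm to farnesyl diphosphate, then through squalene and lanosterol to the finished sterol. The transcription factor SREBP-2, encoded by Srebf2, drives the genes of this route when sterol in the endoplasmic reticulum is low; Scap escorts it to the Golgi for activation, and the Insig proteins hold it back when sterol is plentiful. The liver X receptors (LXRs) do the reverse job: bound by oxysterols, they switch on the exporters Abca1 and Abcg1 and Mylip, a ubiquitin ligase that removes lipoprotein receptors. Gramd1 proteins carry cholesterol from the plasma membrane to the endoplasmic reticulum.

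The promoters show what many of the synthesis genes share in sequence. RefSeq promoter windows (GRCm38.p6, 300 bases, from 250 before to 50 after the start site) were matched by symbol for 27 of the 35 members, as 36 windows. Fdps, Fdft1, Sqle, Scarb1, Npc1, Stard4, Abcg1 and Gramd1b had no window and were not searched. Sequence before the start site is given for 4 synthesis genes and, for contrast, for the exporter Abca1, in lower case, 5′ to 3′ on the gene's own strand. Capitals mark the core of the sterol response element bound by SREBP (TCACNCCAC) and the box bound by NF-Y (CCAAT). NF-Y is a factor known to act beside SREBP. A match on the opposite strand appears as its reverse complement, which is ATTGG for the NF-Y box.
Hmgcs1, chr13:119690101-119690350, plus strand: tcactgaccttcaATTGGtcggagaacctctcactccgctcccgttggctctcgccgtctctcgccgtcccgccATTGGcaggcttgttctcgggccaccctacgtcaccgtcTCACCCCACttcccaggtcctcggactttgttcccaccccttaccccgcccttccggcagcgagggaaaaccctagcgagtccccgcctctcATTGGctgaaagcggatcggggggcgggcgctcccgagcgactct
Mvk, chr5:114444019-114444268, plus strand: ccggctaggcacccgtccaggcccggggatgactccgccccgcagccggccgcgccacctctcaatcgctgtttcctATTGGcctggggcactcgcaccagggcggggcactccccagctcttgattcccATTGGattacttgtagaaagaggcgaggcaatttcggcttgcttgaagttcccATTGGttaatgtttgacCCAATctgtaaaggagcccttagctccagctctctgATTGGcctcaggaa
Cyp51, chr5:4104698-4104947, minus strand: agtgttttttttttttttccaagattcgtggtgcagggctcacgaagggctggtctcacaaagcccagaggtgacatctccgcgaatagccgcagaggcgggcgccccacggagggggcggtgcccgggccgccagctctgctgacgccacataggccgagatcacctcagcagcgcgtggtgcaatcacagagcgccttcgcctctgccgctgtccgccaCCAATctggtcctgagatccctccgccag
Msmo1, chr8:64733579-64733828, minus strand: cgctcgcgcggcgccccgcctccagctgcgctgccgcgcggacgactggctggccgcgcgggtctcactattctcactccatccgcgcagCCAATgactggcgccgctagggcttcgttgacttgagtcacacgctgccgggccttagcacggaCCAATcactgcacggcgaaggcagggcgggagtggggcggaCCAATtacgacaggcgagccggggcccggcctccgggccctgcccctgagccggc
Abca1, chr4:53159896-53160145, minus strand: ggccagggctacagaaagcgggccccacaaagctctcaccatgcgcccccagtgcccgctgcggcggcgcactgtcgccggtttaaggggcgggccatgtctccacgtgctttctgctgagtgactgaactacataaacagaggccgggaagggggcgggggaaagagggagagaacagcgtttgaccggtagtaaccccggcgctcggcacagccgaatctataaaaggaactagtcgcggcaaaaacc

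The NF-Y box was present in the windows of 14 of the 15 synthesis enzymes found in the table, Acat2 being the exception. By window, 77.8% of the 18 enzyme windows held it, and 37.4% of all 32851 windows. Of the export and transfer genes, 33.3% of 9 windows held it, or 3 of 6 genes, against 11096 of all 27025 genes. The Mvk sequence holds 5 such boxes, and the Abca1 sequence none. The SP1 box (GGGCGG) stood in 83.3% of enzyme windows and 35.7% of all windows, and the base composition of these windows was not compared. The sterol response element core, searched with no mismatch, was found in 1 of the 27 members with windows, Hmgcs1. There it spans positions −137 to −129, with −1 as the last base before the start. It stood in 2.78% of the members' 36 windows and in 1.24% of all windows. The perfect LXR DR4 element, a direct repeat with a spacer of 4 bases, was found in 0 of the members' windows and in 5 of all windows. All 4 motifs were searched on both strands, and a match describes the letters only.

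Epithelial markers were measured in all 8 tumours. Krt8, a keratin of luminal cells, ran from 9.78 to 10.89 and Epcam, an epithelial adhesion molecule, from 10.18 to 10.99 over the 8 tumours, on the log2 scale in which all levels and differences are given here. Not every luminal marker was so even: the keratin Krt19 ran from 5.37 in NeuNT replicate 3 to 11.52 in NeuNT/H1074R replicate 3, and the claudin Cldn4 from 8.18 to 11.33. Array medians lay between 4.81 and 4.87. NeuNT/H1074R replicates 1 and 3 stood apart by skeletal muscle transcripts: the mean of 13 muscle markers, each gene centred on its own mean over the 8 tumours, was 1.38 and 1.16 there and −0.56 to −0.33 in the other tumours. Of the other marker lists, a lower mean in NeuNT/H1074R was seen for 8 of 9 adipocyte, 8 of 8 fibroblast, 5 of 5 T cell, 7 of 7 dividing cell, 3 of 5 endothelial and 5 of 10 luminal genes, with no gene passing.

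No member passed the test between genotypes (limma, Benjamini-Hochberg adjusted p over the whole table from 0.978 to 0.9998), and 0% of all tested genes passed. At an unadjusted p under 0.05 there was 1 member of 31, Gramd1b, against 3.82% of all tested genes. That count moved with single tumours. Without NeuNT replicate 1 it was 3 members (Gramd1b, Nr1h3 and Sc5d) against 5.55% of all tested genes, without NeuNT/H1074R replicate 3 it was 3 (Gramd1b, Fdft1 and Sqle) against 3.13%, and without NeuNT replicate 2 it was 2 (Gramd1b and Hsd17b7) against 3.83%. Without NeuNT/H1074R replicate 4 it was Gramd1b alone, against 2.24%. The groups were fully apart, with no overlap, for 2 members, Gramd1b and Nr1h3, both higher in NeuNT/H1074R, against 2.69% of all tested genes in either direction and 1.59% in that direction. Without both tumours with high muscle markers, a setting chosen after seeing the data that leaves 2 tumours in that group, groups did not overlap for 5 members, 16.1% of them, against 19.6% of all tested genes.

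The sterol genes ranged more widely between tumours than the median gene of the array, a description with no test. The median range over the 8 tumours was 1.11 for the 31 members and 0.74 for all tested genes, and the median SD within a genotype was 0.35 against 0.25. Within-genotype SDs of 25 of the 31 members lay above that median of all genes. The 8 marker lists also had median SDs above it, from 0.36 for luminal to 0.74 for T cell markers. A list of 31 other sterol pathway genes had 0.35. A spread above the array median was thus not particular to the members. The widest ranges belonged to Sqle (2.55), Cyp51 (2.48), Gramd1b (1.80) and Msmo1 (1.73), and the narrowest to Tm7sf2 (0.61).

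**Figure D1:**
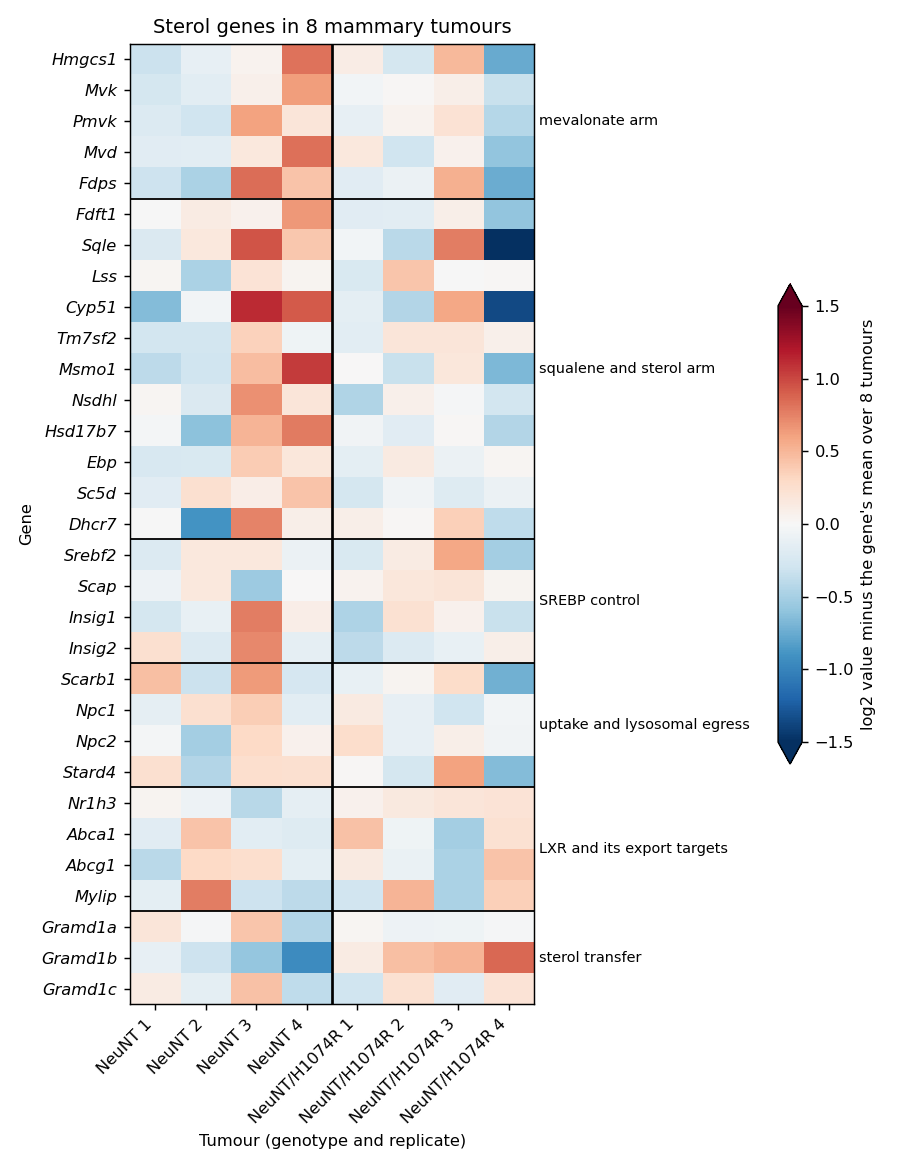
Heat map of 31 sterol genes (rows, grouped by role) in 8 tumours (columns). Colour shows the log2 value minus the gene's mean over the 8 tumours, with the scale ending at 1.5 to either side. Most enzyme rows are red in NeuNT replicates 3 and 4 and blue in NeuNT/H1074R replicate 4, where Sqle and Cyp51 are darkest.

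The synthesis enzymes varied together from tumour to tumour, within both genotypes. The mean of the 16 measured enzymes, each centred on its own mean, was −0.20, −0.23, 0.45 and 0.47 in NeuNT replicates 1 to 4. In NeuNT/H1074R replicates 1 to 4 it was −0.10, −0.08, 0.20 and −0.51. So 3 tumours, NeuNT replicates 3 and 4 and NeuNT/H1074R replicate 3, were above average, and the groups overlapped. NeuNT/H1074R replicate 4 gave the lowest value for 9 of the 16 enzymes, and NeuNT replicates 3 and 4 gave the highest for 8 and 7. For 8 of the 16 the 3 highest tumours were exactly those 3, which held for 2.76% of all tested genes; the 3 were picked by the enzyme mean itself, so this count is no test. After genotype means were removed, the median Pearson r over the 120 enzyme pairs was 0.62 across the 8 tumours, and 97.5% of pairs were positive; over all pairs of tested genes the median was 0. By the same measure, 7 dividing cell genes had a median r of 0.96 and 15 macrophage markers 0.81, both above the enzymes. Of those pairs, 100% and 79.0% were positive. All values share the same arrays, and these correlations are descriptions. Leaving out single tumours moved the enzyme median r only between 0.60 and 0.65.

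Dividing cell genes varied along with the enzymes in part. The mean of 7 such genes was 0.33, 0.45 and 0.35 in the 3 tumours with high enzymes, and −0.82 in NeuNT/H1074R replicate 4. It was also high, at 0.50, in NeuNT replicate 1, where the enzyme mean was below 0. Macrophage markers went another way, with a mean of −0.79 in NeuNT/H1074R replicate 3 and 0.34 in NeuNT replicate 3. Adipocyte markers were highest in the NeuNT tumours with low enzymes, with a mean of 0.96 and 0.95 in NeuNT replicates 1 and 2 against −0.35 and −0.34 in replicates 3 and 4. In NeuNT/H1074R replicates 1 to 4 the adipocyte mean was −0.58, 0.11, −0.06 and −0.69, so replicate 4 was lowest for both adipocyte markers and enzymes. The part of these cells in the enzyme levels was not tested, and in bulk tumours fewer cells of a type and less RNA per cell cannot be told apart.

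**Figure D2:**
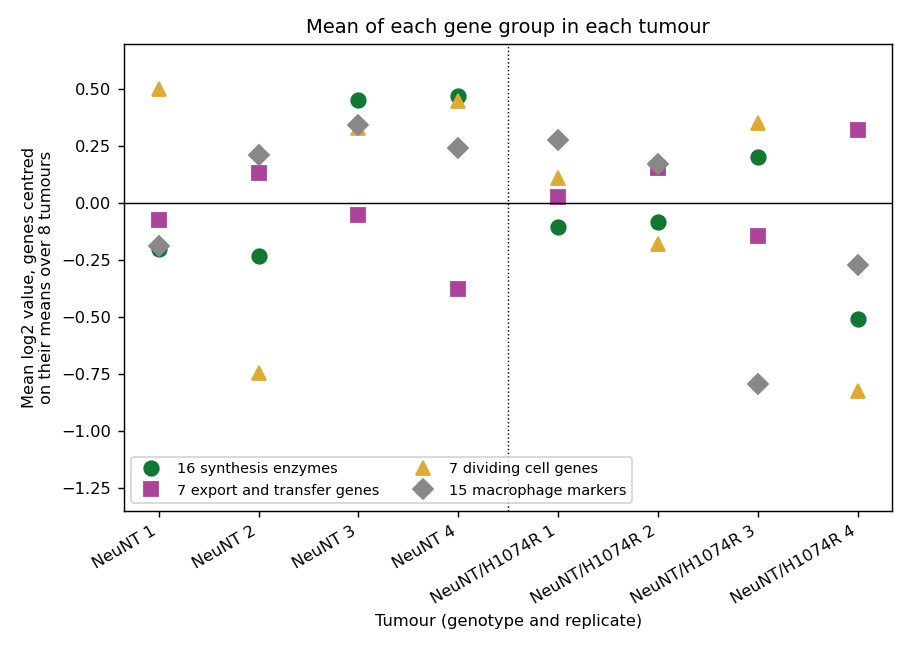
Mean log2 value per tumour of 16 synthesis enzymes, 7 export and transfer genes, 7 dividing cell genes and 15 macrophage markers, with each gene centred on its mean over the 8 tumours. The enzymes run from −0.51 in NeuNT/H1074R replicate 4 to 0.47 in NeuNT replicate 4, and in those tumours the export and transfer genes stand at 0.32 and −0.38.

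Along the mevalonate arm, all 5 measured genes had a lower mean in NeuNT/H1074R, none passing, with a median difference of −0.21. Of all tested genes, 50.5% had a lower mean, and their median was near 0. The enzymes varied together, so counts of direction in this arm or the next are not separate observations. The 5 genes are Hmgcs1, which condenses acetoacetyl-CoA with acetyl-CoA, the kinases Mvk and Pmvk, the decarboxylase Mvd and the farnesyl diphosphate synthase Fdps. Differences ran from −0.33 for Mvd to −0.14 for Mvk. Hmgcs1 stood at 8.05, 8.26, 8.43 and 9.19 in NeuNT replicates 1 to 4 and at 8.49, 8.11, 8.86 and 7.63 in NeuNT/H1074R replicates 1 to 4. Its highest and lowest tumours were thus the replicates numbered 4 of the opposite genotypes, and the groups overlapped. Without NeuNT replicate 4 the Hmgcs1 difference was 0.026.

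In the squalene and sterol arm, 8 of 11 genes had a lower mean in NeuNT/H1074R, none passing, with a median difference of −0.32. Cyp51, which takes the first methyl group off lanosterol, stood at 6.09, 6.70, 7.87 and 7.66 in NeuNT replicates 1 to 4 and at 6.60, 6.31, 7.32 and 5.38 in NeuNT/H1074R replicates 1 to 4. The lowest NeuNT tumour was below 3 of the 4 NeuNT/H1074R tumours. The difference was −0.68 ± 0.49 (SE, n = 4 and 4; limma adjusted p = 0.978), and −0.34 without NeuNT/H1074R replicate 4. Sqle, the squalene epoxidase, had the same tumour at the bottom, 6.09 in NeuNT/H1074R replicate 4, with 7.65, 7.29 and 8.46 in replicates 1 to 3. In NeuNT replicates 1 to 4 it stood at 7.48, 7.86, 8.64 and 8.10. Both genes were high in NeuNT replicate 3 and in NeuNT/H1074R replicate 3, so the upper ends of the groups met.

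Msmo1 is a sterol methyl oxidase that acts later than Cyp51. It read 6.64, 6.74, 7.50 and 8.08 in NeuNT replicates 1 to 4 and 7.05, 6.71, 7.21 and 6.36 in NeuNT/H1074R replicates 1 to 4. Its difference of −0.41 ± 0.34 (SE; limma adjusted p = 0.978) was −0.13 without NeuNT replicate 4. Nsdhl, the dehydrogenase acting next to Msmo1, read 8.68, 8.45, 9.34 and 8.84 in NeuNT replicates 1 to 4 and 8.20, 8.73, 8.63 and 8.38 in NeuNT/H1074R replicates 1 to 4. NeuNT replicate 3 was the highest for Nsdhl, and the other tumours of both genotypes interleaved.

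Fdft1 and Sc5d had the smallest unadjusted p among the enzymes. Fdft1, the squalene synthase, stood at 8.34, 8.46, 8.40 and 8.99 in NeuNT replicates 1 to 4 and at 8.16, 8.18, 8.43 and 7.75 in NeuNT/H1074R replicates 1 to 4. The groups overlapped through NeuNT/H1074R replicate 3, and the difference was −0.42 ± 0.20 (SE), with a 95% interval from −0.87 to 0.03 (limma adjusted p = 0.978). Sc5d, the desaturase of a late step, read 8.19, 8.60, 8.45 and 8.79 in NeuNT replicates 1 to 4 and 8.09, 8.30, 8.16 and 8.27 in NeuNT/H1074R replicates 1 to 4. All 4 NeuNT/H1074R tumours lay close together for Sc5d (SD 0.10), and NeuNT replicate 1 fell among them; the difference was −0.30 ± 0.15 (SE; limma adjusted p = 0.978).

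The remaining genes of this arm were the lanosterol synthase Lss, the reductases Tm7sf2 and Dhcr7, Hsd17b7 and the isomerase Ebp. Their differences ran from −0.32 for Hsd17b7 to 0.14 for Tm7sf2. Dhcr7, which makes the last double bond reduction of one branch, differed by 0.04, but its range was 1.65, from 7.07 in NeuNT replicate 2 to 8.72 in NeuNT replicate 3. Over all 16 enzymes the median difference was −0.27. Leaving out NeuNT replicate 4 gave −0.11, with 10 of the 16 lower. Leaving out NeuNT/H1074R replicate 4 gave −0.12, with 12 of the 16 lower.

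**Figure D3:**
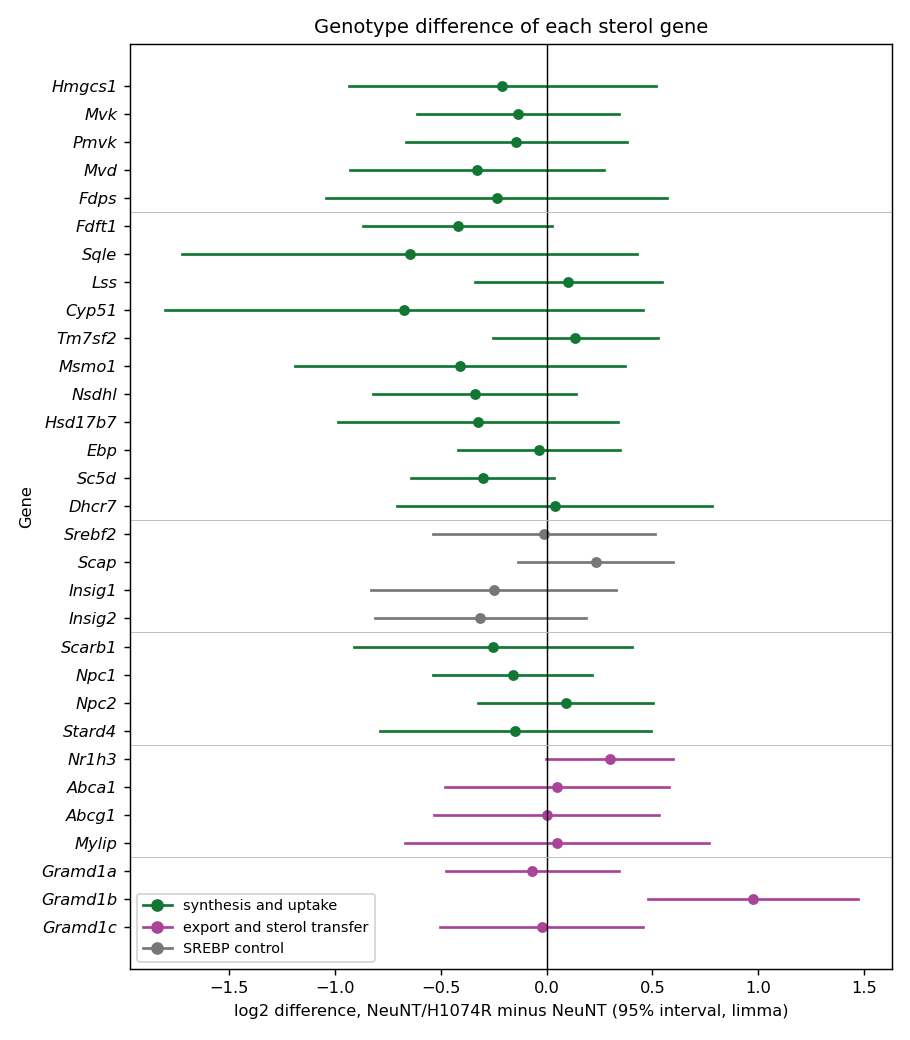
Difference in log2 value, NeuNT/H1074R minus NeuNT, for each of 31 sterol genes, with the 95% interval from limma; green marks synthesis and uptake, purple export and sterol transfer, grey SREBP control, and lines part the roles. The interval of Gramd1b (0.48 to 1.47) lies clear of 0, and no gene passed after adjustment.

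None of the 4 control genes passed. Srebf2 stood at 8.78, 9.14, 9.13 and 8.89 in NeuNT replicates 1 to 4 and at 8.75, 9.10, 9.56 and 8.47 in NeuNT/H1074R replicates 1 to 4. The group means were 8.99 and 8.97, and the extremes of both directions, replicates 3 and 4, lay in NeuNT/H1074R. These were also the tumours of that genotype with the highest and the lowest enzyme mean. After genotype means were removed, the r of Srebf2 with the enzymes was positive for 16 of 16, with a median of 0.37. For Insig1, itself a gene that SREBP-2 switches on, it was positive for 16 of 16, with a median of 0.59. For Insig2 it was positive for 10 of 16, with a median of 0.13, and for Scap for 5 of 16, with a median of −0.35. With Srebf2 the single r values ran from 0.06 for Sc5d to 0.83 for Sqle. The enzymes varied together, so these counts of signs are not separate observations, and control by SREBP-2 was not tested. Insig1 and Insig2 differed by −0.25 and −0.31, and Scap by 0.23, with a second Scap probe at 0.24; none passed.

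Among genes of uptake and lysosomal egress, Scarb1, the receptor for high density lipoprotein, differed by −0.25, and Stard4, a carrier of sterol in the cytosol, by −0.15. Npc1 and Npc2, which hand cholesterol out of the lysosome, differed by −0.16 and 0.09. None passed (limma adjusted p from 0.978 to 0.986). Stard4 had its lowest value, 5.10, in NeuNT/H1074R replicate 4 and its highest, 6.36, in NeuNT/H1074R replicate 3, the same tumours as for Srebf2.

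No LXR or export gene passed, and Nr1h3, which encodes LXRα, was the one of the 4 measured whose groups did not overlap. It stood at 6.66, 6.55, 6.20 and 6.48 in NeuNT replicates 1 to 4 and at 6.68, 6.77, 6.80 and 6.83 in NeuNT/H1074R replicates 1 to 4. The groups nearly touched at NeuNT replicate 1 and NeuNT/H1074R replicate 1. The difference was 0.30 ± 0.13 (SE; limma adjusted p = 0.978).

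Abca1, which loads cholesterol onto lipid-poor apolipoprotein, read 8.14, 8.74, 8.15 and 8.12 in NeuNT replicates 1 to 4 and 8.75, 8.25, 7.81 and 8.54 in NeuNT/H1074R replicates 1 to 4. NeuNT replicate 2 stood apart from the other NeuNT tumours and matched the highest NeuNT/H1074R tumour. The difference was 0.05 ± 0.23 (SE), with a 95% interval from −0.48 to 0.58. Abcg1, which passes sterol to mature high density lipoprotein, had group means of 8.10 in both genotypes, and Mylip had means of 8.96 and 9.01. Macrophages are rich in LXR target genes, and 14 of 15 macrophage markers had a lower mean in NeuNT/H1074R, with tumour means from −0.19 to 0.34 in NeuNT and from −0.79 to 0.28 in NeuNT/H1074R. NeuNT/H1074R replicate 3, lowest for the macrophage markers, was also lowest for Abca1, Abcg1 and Mylip. Other tumours did not follow that order: NeuNT/H1074R replicate 4, second lowest for the macrophage markers at −0.27, was highest for Abcg1 at 8.53, and NeuNT replicate 3, highest for them at 0.34, had Abca1 at 8.15 and Mylip at 8.67. The part of macrophages in these levels was not tested.

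Of the Gramd1 genes, only Gramd1b had groups that did not overlap. It read 5.62, 5.43, 5.17 and 4.80 in NeuNT replicates 1 to 4 and 5.87, 6.19, 6.26 and 6.60 in NeuNT/H1074R replicates 1 to 4. Every NeuNT/H1074R tumour was above every NeuNT tumour, with the lowest enzyme tumour, NeuNT/H1074R replicate 4, at the top and NeuNT replicate 4, the highest enzyme tumour, at the bottom. The difference was 0.98 ± 0.22 (SE), with a 95% interval from 0.48 to 1.47 (limma adjusted p = 0.978). It lay between 0.82 and 1.10 whichever single tumour was left out.

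For the other family members the groups overlapped. Gramd1a stood at 8.65, 8.45, 8.88 and 8.03 in NeuNT replicates 1 to 4 and at 8.50, 8.39, 8.41 and 8.45 in NeuNT/H1074R replicates 1 to 4, a difference of −0.07 ± 0.18 (SE). Gramd1c stood at 6.51, 6.24, 6.82 and 6.00 in NeuNT replicates 1 to 4 and at 6.08, 6.61, 6.21 and 6.58 in NeuNT/H1074R replicates 1 to 4, a difference of −0.02 ± 0.21 (SE). For both genes the NeuNT/H1074R tumours lay inside the NeuNT range; whether Gramd1b differs from them in its response was not tested.

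**Figure D4:**
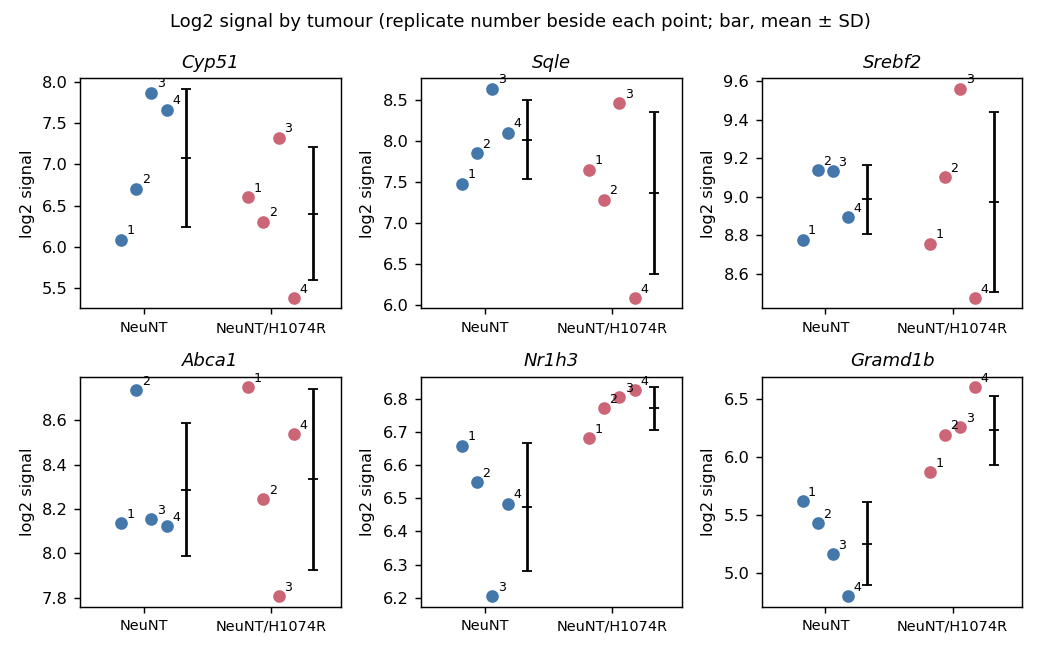
Log2 signal of Cyp51, Sqle, Srebf2, Abca1, Nr1h3 and Gramd1b in each tumour (points, with replicate numbers), with mean and SD (n = 4) beside each genotype. Each panel has its own axis, which does not start at 0. The groups are apart for Gramd1b and, by a narrow gap, Nr1h3, and overlap for the other genes.

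Set against each other, synthesis and uptake genes had a median difference of −0.22 (20 genes, 16 with a lower mean), and export and transfer genes one of 0.05 (7 genes, 4 with a higher mean). Genes of the synthesis and uptake side varied together, so its 16 lower means are not separate observations. The median of export and transfer genes exceeded that of synthesis and uptake genes by 0.27. This contrast rested on single tumours: leaving out NeuNT/H1074R replicate 4 gave −0.0078, and leaving out NeuNT/H1074R replicate 3 gave 0.60. Leaving out NeuNT replicate 4 gave 0.064, and leaving out NeuNT replicate 2 gave 0.50. Without both tumours with high muscle markers it was 0.57.

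Across tumours the sides leaned in opposite directions. The mean of the 7 export and transfer genes was −0.07, 0.13, −0.05 and −0.38 in NeuNT replicates 1 to 4 and 0.03, 0.16, −0.14 and 0.32 in NeuNT/H1074R replicates 1 to 4. In NeuNT replicates 3 and 4 and NeuNT/H1074R replicate 3, where synthesis and uptake genes averaged 0.44, 0.37 and 0.20, all export and transfer means were below 0. In NeuNT replicate 1 both means were below 0. In NeuNT/H1074R replicate 4, where synthesis and uptake averaged −0.48, the export and transfer mean was the highest of the 8. For the LXR and export genes alone, NeuNT replicate 2 was highest at 0.35, with NeuNT/H1074R replicate 4 at 0.30. After genotype means were removed, the median r over the 140 pairs with 1 gene from each side was −0.41, and 78.6% of these pairs were negative. With single tumours left out, the median r lay between −0.52 and −0.31. Among the 7 export and transfer genes themselves the median r over 21 pairs was only 0.25, with 71.4% positive. Not all of them ran against the enzymes alike: the median r with the enzymes ran from −0.59 for Mylip to −0.01 for Gramd1a.

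Of 40 other sterol pathway genes listed, 31 were tested; 12 had a higher mean and 19 a lower mean in NeuNT/H1074R, 0 passed and 3 had an unadjusted p under 0.05, against 3.82% of all tested genes. Their median difference was −0.10. The smallest p belonged to Lpcat3, an LXR target that remodels phospholipids, which differed by −0.37 ± 0.14 (SE). Erlin1, a membrane protein that helps degrade sterol-sensing proteins, differed by −0.30, the oxysterol hydroxylase Cyp7b1 by −0.36, and the phospholipid transfer protein Pltp, also an LXR target, by −1.04 ± 0.50 (SE). All 4 had overlapping groups (limma adjusted p = 0.978).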

How the data were processed

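Each of 8 tumours, 4 per genotype, gave 1 array. The authors deposited 1 table of log2 values for 41345 probes; the log2 scale was read from the values. Per the submitters' processing notes, Affymetrix Expression Console and Transcriptome Analysis Console were used; how background and normalization were handled is not stated in these notes. Arrays were used as deposited; their number limits the precision, and the median 95% interval of a difference reached 0.40 to either side. Arrays of 1 genotype correlated at 0.89 to 0.98 over tested genes, and arrays of different genotypes at 0.89 to 0.97.

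The platform annotation named 23521 probes with 1 symbol and 1814 with several, which were left out; 16010 were unlisted. Each gene was represented by its brightest probe by mean over the 8 tumours. The lowest 25% of genes by mean, under 4.06, were left out as dim. NeuNT/H1074R minus NeuNT was fitted with limma 3.58.1 (lmFit, eBayes with intensity trend) in R 4.3.3, two-sided, with Benjamini-Hochberg adjustment over 16635 genes and a threshold of 0.05. The test was checked on simulated data. Figures used matplotlib 3.10.9.

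Members, gene lists and marker lists were chosen with earlier results of these data known, so no list was tested. Values in every tumour are given for members whose groups do not overlap, the 4 of smallest unadjusted p per side, the 4 of widest range, and Srebf2, Nr1h3, Abca1 and the Gramd1 genes; Hmgcs1 was added after its values were seen. Of the other pathway genes, the 4 of smallest p are named. Synthesis and uptake comprised both enzyme arms, Scarb1, Npc1, Npc2 and Stard4; export and transfer comprised LXR genes, Abca1, Abcg1, Mylip and Gramd1 genes. Markers were also listed for adipocytes, fibroblasts, endothelial cells and T cells. Alternatives left out tumours, changed normalization, filter, probe choice, variance model or array weights, or replaced the limma test.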

Additional observations from a re-analysis of the deposited data

Results flagged for a closer look

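In groups of 4 tumours, a value was marked when its gap to the nearest other tumour was large against the group's range, by Dixon's rule at its 95% limit. Over 66 groups checked, 2 were marked, and chance marks about 1 in 20. Stard4 was low in NeuNT replicate 2, at 5.32 against 6.00 to 6.01 in the other NeuNT tumours. Abca1 was high in the same tumour, at 8.74 against 8.12 to 8.15.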

How the results depend on the processing

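No gene of all those tested, and no member, passed under any alternative run. At an unadjusted p under 0.05 there were 635 of 16635 genes with all 8 tumours, 373 without NeuNT/H1074R replicate 4, 923 without NeuNT replicate 1 and 1106 without both tumours with high muscle markers. A plain equal-variance test gave 714. With the filter raised to the lowest 50% there were 358 of 11090 genes (3.23%), and with no filter 936 of 22180 (4.22%), against 3.82%. Among members the count was between 1 and 3 under each alternative. Of 527 member differences under alternatives, 479 kept their direction and 48, from 15 members, turned. The other 16 members kept theirs. Changes of filter or variance model cannot alter a difference, so those runs could only count as kept. Averaging the probes of a gene could alter only Npc1 and Scap. The 479 therefore overstates how steady the directions were. With 1 tumour left out, Hmgcs1 ran from −0.41 to 0.026, Mvk from −0.25 to 0.050, Pmvk from −0.27 to 0.032, Fdps from −0.45 to 0.0034, Lss from −0.041 to 0.19, Ebp from −0.12 to 0.084, Dhcr7 from −0.26 to 0.29, Srebf2 from −0.21 to 0.15, Npc2 from −0.065 to 0.20, Stard4 from −0.37 to 0.045, Abca1 from −0.090 to 0.22, Abcg1 from −0.14 to 0.16, Mylip from −0.11 to 0.31, Gramd1a from −0.23 to 0.059 and Gramd1c from −0.15 to 0.12. Quantile normalization turned Ebp to 0.0080, Srebf2 to 0.021, Abcg1 to 0.045 and Gramd1c to 0.013. Array weights turned Ebp to 0.013, Dhcr7 to −0.022, Abcg1 to 0.064 and Gramd1c to 0.063. Without both tumours with high muscle markers, chosen after seeing the data, Ebp was 0.066, Dhcr7 −0.16, Npc2 −0.042, Abcg1 0.17 and Gramd1c 0.20, and with 2 tumours left in that group, 5 members (16.1%) had groups that did not overlap, against 19.6% of all tested genes. The median of synthesis and uptake genes ran from −0.38 to −0.05 with 1 tumour left out, that of export and transfer genes from −0.06 to 0.21. The cause of these shifts was not tested. No paired analysis was possible because the labels give tumours of the genotypes no shared numbers.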

Other observations

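Some genes outside the set followed its tumour pattern or ran against it; all were chosen after their values were seen. Aacs, which makes acetoacetyl-CoA for sterol synthesis, was highest in the 3 tumours with high enzymes: 7.22 and 7.16 in NeuNT replicates 3 and 4 and 7.48 in NeuNT/H1074R replicate 3, against 6.35 to 6.90 elsewhere. Lrp8, a lipoprotein receptor, was highest in the same 3, at 8.51, 7.17 and 7.76. These were 2 of 31 tested genes of the wider pathway list, or 6.45%, against 2.76% of all tested genes. Srebf1, which encodes the SREBP that mainly drives fatty acid genes, was low in NeuNT replicates 3 and 4 (8.23 and 8.08) and high in NeuNT/H1074R replicates 2 and 4 (10.29 and 10.22). It differed by 0.79 ± 0.47 (SE), with a limma adjusted p of 0.978.

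Transcripts of Apoc1, an apolipoprotein, had the widest range of that list: 10.05, 11.12, 6.06 and 9.54 in NeuNT replicates 1 to 4 and 9.12, 5.92, 10.33 and 6.47 in NeuNT/H1074R replicates 1 to 4. High and low tumours occurred in both genotypes.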
